A study of Mus musculus with 2 samples.

Results

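The mouse Schlafen family was followed through 2 libraries of nuclear RNA from macrophages stimulated with Lipid A. Its members were taken by gene symbol: Slfn1, Slfn2, Slfn3, Slfn4, Slfn5, Slfn8 and Slfn9, 7 of the 55536 annotated genes in the gene tables. Each symbol matched 1 gene, and all 7 lie in one cluster on chromosome 11.

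The study sequenced total RNA from the nucleoplasmic fraction of primary macrophages grown from the bone marrow of C57BL/6J mice. The cells had been exposed to Lipid A, the part of bacterial lipopolysaccharide that Toll-like receptor 4 recognises, at 100 ng/ml for 120 min. Both libraries belong to this single group and are labelled as biological replicates 1 and 2. Their labelled RNA inputs were 1 µg and 500 ng, and both name the same donor entry with separate biosamples, so the spread between them may not be that between animals. With 1 group and no untreated libraries here, the levels below describe stimulated cells and say nothing about induction, and no test between groups could be run. Because RNA was taken in bulk, fewer cells with a transcript and less of it per cell cannot be told apart.

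Schlafen genes are a family of vertebrate genes that expanded in rodents, and many of them are induced by type I interferon. Their proteins share an N-terminal core region. Members are sorted by length into short forms (Slfn1 and Slfn2), intermediate forms (Slfn3 and Slfn4) and long forms (Slfn5, Slfn8 and Slfn9) that add a helicase-like region at the C-terminal end. Lipid A makes macrophages secrete interferon beta, which signals back through the type I interferon receptor to interferon-stimulated response elements, or ISREs, in target promoters.

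Of the promoter windows of the 7 members, those of the long forms held a match to an ISRE string and the others did not. Stretches of all 7 are given here. Each line gives 60 bases, read 5′ to 3′ on the gene's own strand from the RefSeq promoter sequences of build GRCm38.p6. The windows for Slfn5, Slfn8 and Slfn9 are centred on a match to the ISRE string GAAANNGAAA, shown in capitals. In Slfn8 and Slfn9 the match is on the opposite strand, so the capitals show its reverse complement. The other windows show in capitals the longest word shared by Slfn1, Slfn2, Slfn3 and Slfn4. These genes were grouped before the word was sought, so the word does not set them apart.
Slfn5, chr11:82951922-82951981, plus strand: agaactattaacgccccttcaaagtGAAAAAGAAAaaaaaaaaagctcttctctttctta
Slfn8, chr11:83020824-83020883, minus strand: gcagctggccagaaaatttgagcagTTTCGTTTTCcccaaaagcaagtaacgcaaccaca
Slfn9, chr11:82991841-82991900, minus strand: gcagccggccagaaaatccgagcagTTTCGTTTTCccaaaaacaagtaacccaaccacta
Slfn1, chr11:83116721-83116780, plus strand: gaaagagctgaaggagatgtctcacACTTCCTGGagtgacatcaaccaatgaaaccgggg
Slfn2, chr11:83065032-83065091, plus strand: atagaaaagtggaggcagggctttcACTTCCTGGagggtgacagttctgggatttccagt
Slfn3, chr11:83191263-83191322, plus strand: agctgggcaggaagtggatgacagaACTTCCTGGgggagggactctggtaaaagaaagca
Slfn4, chr11:83175088-83175147, plus strand: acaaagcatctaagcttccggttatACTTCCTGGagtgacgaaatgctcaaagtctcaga

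All 7 members had a RefSeq promoter of 250 bases before to 50 bases after the start site, and none of the printed stretches overlapped an annotated exon. The ISRE string, searched on both strands, was present in 3 of 7 members. It lay 155 bases before the RefSeq start of Slfn5, 48 before that of Slfn8 and 45 before that of Slfn9. The RefSeq start of Slfn5, at 82952102, lies downstream of the gene's first base in the annotation of the count tables, at 82951349, so the Slfn5 stretch lies inside the annotated gene, outside its exons. Among all 32851 promoter windows of the same length, 3.44% held the ISRE string, and among 27025 genes 3.99% did. Slfn8 and Slfn9 held the same letters in stretches that are much alike, so their matches are not independent. The Slfn5 match runs into a row of further A letters. The word ACTTCCTGG lay 74, 55, 42 and 73 bases before the starts of Slfn1, Slfn2, Slfn3 and Slfn4, in the same orientation each time. It occurred in 230 of the 32851 windows, or 0.7%, but this word was found by comparing these promoters, so its presence in them is no test. On its opposite strand the word carries GGAA, the core letters that ETS-family factors such as the macrophage factor PU.1 recognise.

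The gamma-activated string TTCNNNGAA, the kappaB string GGGANNTTCC and the PU.1 string GAGGAAGT were each in 0 of 7 members, against 8.3%, 1.47% and 3.2% of all windows. A missing string says only that these letters are not in the window. Slfn1 and Slfn4 shared a longer stretch around the common word, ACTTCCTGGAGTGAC, which 2 of all windows held. Slfn8 and Slfn9 matched at 44 of the 60 printed positions (73.3%), while Slfn1 and Slfn4 matched at 27 (45%) and Slfn5 and Slfn8 at 15 (25%). The stretches were lined up on their capitals with no other alignment. The capitals therefore match by design within Slfn8 and Slfn9 and within Slfn1 and Slfn4. In Slfn5 and Slfn8 the string lies on opposite strands, so the capitals differ. By this count the Slfn8 and Slfn9 stretches were more alike than the other pairs given here, but the pairs are not on equal terms.

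Levels are given in TPM, the share of transcript molecules after correction for transcript length, scaled to a fixed total per library, from the deposited gene tables. A gene was called detected when it reached 1 TPM in both libraries, and 7 of 7 members did. By the same rule 20.2% of all annotated genes and 40.4% of nuclear-encoded protein-coding genes were detected. The members ranged from 12.2 to 279 TPM in the mean and formed a high set of Slfn2, Slfn8 and Slfn5, a middle set of Slfn9 and Slfn3, and a low set of Slfn1 and Slfn4. Scaled to protein-coding genes alone, the same means ran from 48.95 to 1133, since much of the library's TPM lay outside those genes. All 7 members were lower in replicate 2 than in replicate 1 in plain TPM, and all 7 were higher on the protein-coding scale. Slfn2, Slfn8 and Slfn5 together held 87.3% of the family's summed TPM in replicate 1 and 87.5% in replicate 2.

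**Figure D1:**
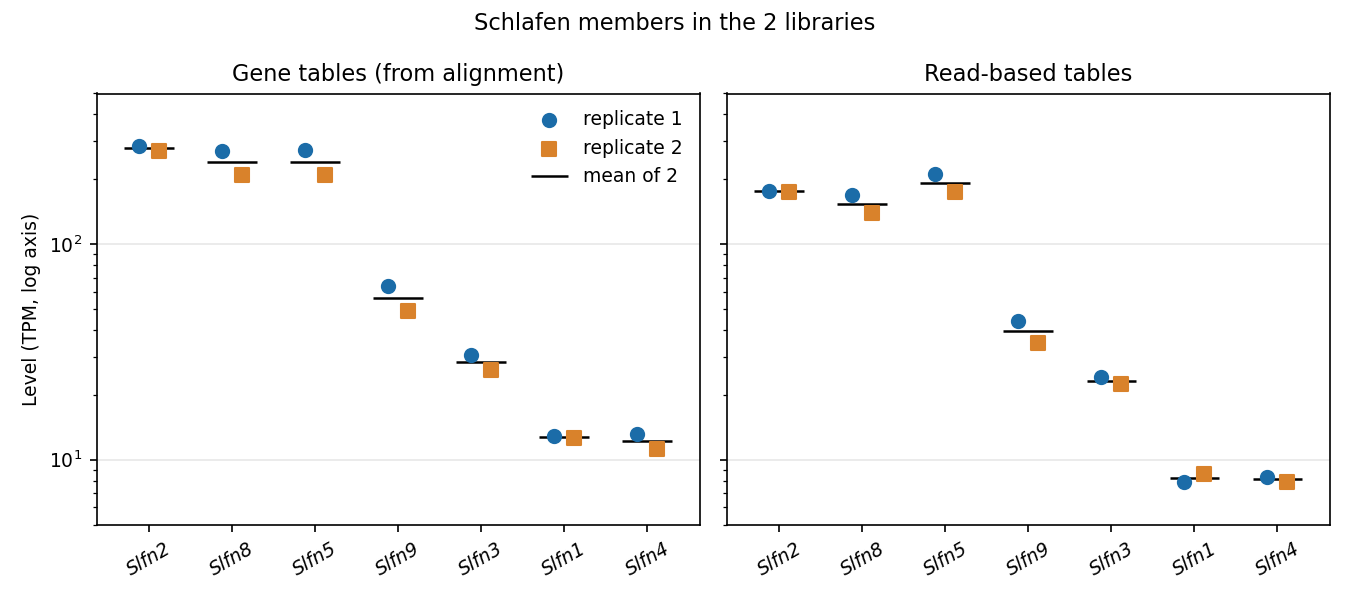
TPM of the 7 Schlafen genes on a log axis, in the gene tables (left) and the tables estimated from reads (right), with a circle for replicate 1, a square for replicate 2 and a line at their mean. Slfn2, Slfn8 and Slfn5 lie close together at the top, and Slfn1 and Slfn4 overlap at the bottom in both panels.

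Among the short forms, Slfn2 is best known for keeping T cells and monocytes quiescent. Slfn2 stood at 286 TPM in replicate 1 and 272 TPM in replicate 2, a mean of 279 ± 10.3 TPM (SD, n = 2). The libraries lay close together in plain TPM but stood at 963 and 1304 on the protein-coding scale, and the gene ranked above 99.5% of protein-coding genes by mean TPM. These values rested on 5833 and 8352 expected counts. Slfn2 has a single annotated transcript, so its level did not depend on a split between isoforms.

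Slfn1, the other short form and the founding gene of the family, was first described as a growth regulator in developing T cells. It reached only 12.9 and 12.6 TPM, a mean of 12.7 ± 0.219 TPM (SD, n = 2), from 299 and 440 expected counts. The 2 short forms therefore differed by 22.2 times in replicate 1 and 21.6 times in replicate 2, far more than either gene differed between libraries. Slfn1 ranked above 83.7% of protein-coding genes, but above only 59.6% of the detected ones.

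The intermediate forms lay at the far end of the cluster. Slfn3, studied for its part in enterocyte differentiation, stood at 30.7 and 26.2 TPM (mean 28.4 ± 3.17, SD, n = 2) from 870 and 1041 expected counts. Slfn4, studied mainly in myeloid cells, stood at 13.1 and 11.2 TPM (mean 12.2 ± 1.38, SD, n = 2) from 677 and 868 expected counts. Slfn3 was higher than Slfn4 in both libraries, by 2.33 and 2.34 times. Slfn4 and Slfn1 overlapped, with Slfn4 the higher in replicate 1 and Slfn1 the higher in replicate 2.

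The long forms included the family's largest sources of reads. Slfn5, a nuclear protein whose human counterpart restricts herpesvirus transcription, stood at 272 and 209 TPM (mean 240.5 ± 44.5, SD, n = 2) from 18926 and 21369 expected counts. Slfn8 stood at 271 and 210.2 TPM (mean 240.7 ± 43.2, SD, n = 2) from 11258 and 13593 expected counts. The Slfn8 to Slfn5 ratio was 0.997 in replicate 1 and 1.00 in replicate 2, so these 2 genes could not be ordered. Both were lower in TPM in replicate 2, but higher when TPM was scaled to protein-coding genes alone, where Slfn8 stood at 912 and 1009 and Slfn5 at 915 and 1003.

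Slfn9, the neighbour and close relative of Slfn8, stood at 63.9 and 48.9 TPM (mean 56.4 ± 10.6, SD, n = 2) from 4141 and 5164 expected counts. It was below Slfn8 by 4.25 and 4.30 times and below Slfn5 by 4.26 and 4.28 times. It was above Slfn3 by 2.08 and 1.87 times. The 3 long forms thus kept close to the same proportions in both libraries while their TPM was lower in replicate 2. Scaled to protein-coding genes alone, Slfn9 too was higher in replicate 2, at 215 and 234.

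The order by mean TPM was Slfn2, Slfn8, Slfn5, Slfn9, Slfn3, Slfn1 and Slfn4. The ranges of the 2 libraries overlapped between the neighbours Slfn8 and Slfn5 and between the neighbours Slfn1 and Slfn4. Slfn2 also overlapped Slfn5, and its lower library exceeded the higher Slfn8 library by under 1 TPM. The breaks above Slfn9, between Slfn9 and Slfn3 and between Slfn3 and Slfn1 were each larger than the spread between libraries.

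The authors' tables also hold a posterior mean TPM with a credibility interval, whose level the files do not state and which covers the uncertainty of read assignment within a library. For Slfn2 the posterior mean was 264 TPM, interval 257 to 271, in replicate 1 and 257 TPM, interval 252 to 263, in replicate 2. For Slfn8 it was 250.3 TPM, interval 244 to 256, and 199 TPM, interval 195 to 203. For Slfn9 it was 58.9 TPM, interval 56.7 to 61.1, and 46.3 TPM, interval 44.8 to 47.8. The Slfn8 and Slfn9 intervals of the 2 libraries did not overlap, while those of Slfn2 did. On this scale Slfn5 came before Slfn8, and posterior means lay below the plain TPM for every member. For Slfn2, Slfn8, Slfn5 and Slfn9 the plain TPM lay above the upper bound in both libraries. The intervals of these genes therefore do not cover the plain TPM given above.

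The second set of tables, estimated directly from the reads, placed the high set in another order. There Slfn5 stood at 211 and 174 TPM (mean 193 ± 26, SD, n = 2), Slfn2 at 177 and 174 TPM (mean 176 ± 1.84) and Slfn8 at 169 and 140 TPM (mean 154 ± 20.5). Slfn5 and Slfn2 could not be told apart in replicate 2. Slfn9 at 43.9 and 34.8 TPM, Slfn3 at 24.2 and 22.4 TPM, Slfn1 at 7.84 and 8.60 TPM and Slfn4 at 8.35 and 7.84 TPM followed in the same order as before. The leading gene among Slfn2, Slfn5 and Slfn8 therefore depended on the table, and the order of the 4 lower members by mean did not.

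In expected counts, which are not corrected for length, the 7 members held 0.2922% of replicate 1 (42004 counts, Wilson 95% interval 0.2894% to 0.295%) and 0.3104% of replicate 2 (50827 counts, interval 0.3078% to 0.3131%). The mean share was 0.301% ± 0.0129 (SD, n = 2). The intervals cover counting error only. Slfn5 alone gave 45.1% and 42% of the family's counts and Slfn8 26.8% and 26.7%, whereas Slfn2 gave 13.9% and 16.4%. Slfn2 led in TPM but not in counts, its transcript of 1664 bases being much shorter than the 5979 bases of Slfn5-201.

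Replicate 2 was lower in TPM than replicate 1 for most genes: over 12655 genes with a mean TPM of at least 1, the median log2 ratio of replicate 2 to replicate 1, on the log2(TPM + 1) scale, was -0.58. Ratios below are relative to that median. All 7 members lay above 0, against 50% of the genes by construction, with a median of 0.36 and a range of 0.20 to 0.55, but Slfn5, Slfn8 and Slfn9 fell below 0 when genes under 1 TPM also set the median. Past a relative ratio of 1 in either direction lay 0 of 7 members, against 10.3% of genes. The relative ratio was highest for the short forms, 0.55 for Slfn1 and 0.51 for Slfn2. It was 0.37 for Slfn4 and 0.36 for Slfn3, and 0.22, 0.20 and 0.20 for Slfn8, Slfn5 and Slfn9. The SD of the ratio over all these genes was 0.809, and every member's ratio lay within it.

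Macrophage markers moved between the libraries in the same direction as these ratios and further. All 10 were detected, their summed level was 1199 TPM in replicate 1 and 2704 TPM in replicate 2, and their median relative log2 ratio was 1.55, with 9 of 10 above 0. Stromal markers summed to 59.7 TPM in replicate 1 and 0.23 TPM in replicate 2, with 0 of 6 detected in both libraries. Whether either difference had a part in the members' ratios was not tested.

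Markers of lymphocytes, which also use Schlafen genes, were low or absent. Of 8 T cell markers 1 was detected, Lck, and Cd3e, Cd3g and Cd2 were at 0 in both libraries, with the list's sum at 9.63 and 5.58 TPM. Of 5 B cell markers 0 were detected (sums 1.65 and 0.46 TPM), and of 7 neutrophil markers 0 were detected (sums 1.92 and 2.84 TPM), with Ly6g and Camp at 0. Of 5 megakaryocyte markers only Pf4 was detected, and the list summed to 19.0 and 42.4 TPM. Among the T cell markers not detected in both libraries, Cd5 stood at 4.68 TPM in replicate 1 and 0.29 TPM in replicate 2. Whether other cell types had a part in the members' levels was not tested.

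The 26 interferon-stimulated genes of a textbook list were set beside the members, since that is the programme Schlafen genes are best known to follow. All 26 were detected. Their median level was 214 TPM in replicate 1 and 156 TPM in replicate 2. The highest by mean was Rsad2, an antiviral enzyme, at 2012 and 1693 TPM, and the lowest was Ifit3b at 23.1 and 20.4 TPM. By mean TPM, 8 of the 26 genes lay above Slfn2 and 10 above each of Slfn8 and Slfn5. Above Slfn9 lay 22 of the 26 and above Slfn3 25, and all 26 lay above Slfn1 and Slfn4. The high set therefore sat in the upper part of this list and the low set beneath its lowest gene.

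**Figure D2:**
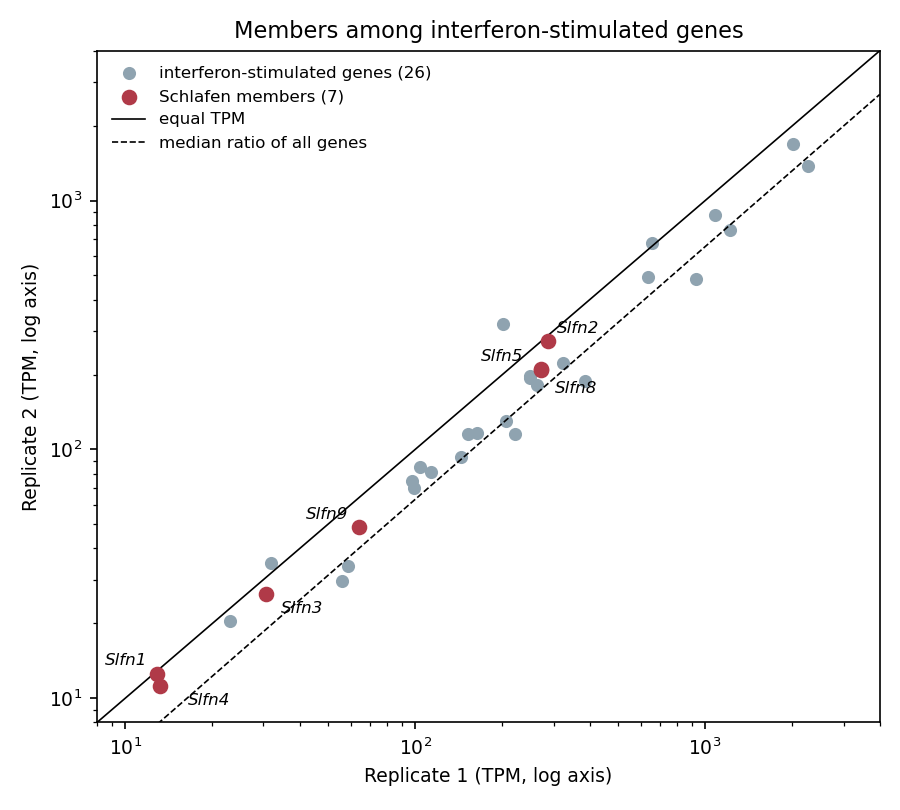
TPM in replicate 1 (x axis) against TPM in replicate 2 (y axis), both on log axes, for the 7 Schlafen genes (red) and the 26 interferon-stimulated genes (grey), with a solid line of equal TPM and a dashed line at the median ratio of all genes. Slfn2, Slfn8 and Slfn5 lie among the interferon-stimulated genes, the points of Slfn8 and Slfn5 coincide, and Slfn1 and Slfn4 lie below all of the list.

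The list's median relative log2 ratio between libraries was 0.10, with 17 of 26 genes above 0, beside 0.36 for the members. Of 10 genes of interferon production and signalling, all were detected, with 5 of 10 above 0 and a median of -0.06. Ifnb1, which encodes interferon beta, was the lowest of them at 15.7 and 16.6 TPM. Stat2, a subunit of the factor that binds the ISRE, was the highest at 386 and 189 TPM. In the 250 bases before the start, the ISRE string was in 10 of the 20 interferon-stimulated genes that had a RefSeq entry and in 3 of 7 members, beside 3.46% of all genes. The word shared by Slfn1 to Slfn4 was in 0 of 20, beside 0.83% of all genes.

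The 3 protein-coding genes whose levels were most like those of Slfn2 over the 2 libraries, by Euclidean distance in log2(TPM + 1), were Sirpa, Trim30a and Gm49339. Sirpa, an inhibitory receptor of myeloid cells, stood at 275.5 and 261 TPM (distance 0.0794), Trim30a at 306.5 and 282 TPM (distance 0.113) and Gm49339 at 316 and 254 TPM (distance 0.173). Likeness over 2 libraries is a match of level only.

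The cluster spanned 263.8 kb on chromosome 11 (build mm10, positions 82951349 to 83215154). From the low end the members ran Slfn5 (82951349 to 82964840, plus strand), Slfn9 (82978390 to 82991830, minus), Slfn8 (83002158 to 83020810, minus), Slfn2 (83065112 to 83070678, plus), Slfn1 (83116849 to 83122670, plus), Slfn4 (83175186 to 83190216, plus) and Slfn3 (83191330 to 83215154, plus). Among the members, the long forms therefore occupied one side and the short and intermediate forms the other. Slfn14, a long form outside the member list, lies past Slfn3. The high set lay on both sides, with Slfn5 and Slfn8 on the first and Slfn2 on the other, where both genes of the low set also lay. Level did not simply follow position: Slfn9 of the middle set stood between Slfn5 and Slfn8, and Slfn1 of the low set followed Slfn2.

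**Figure D3:**
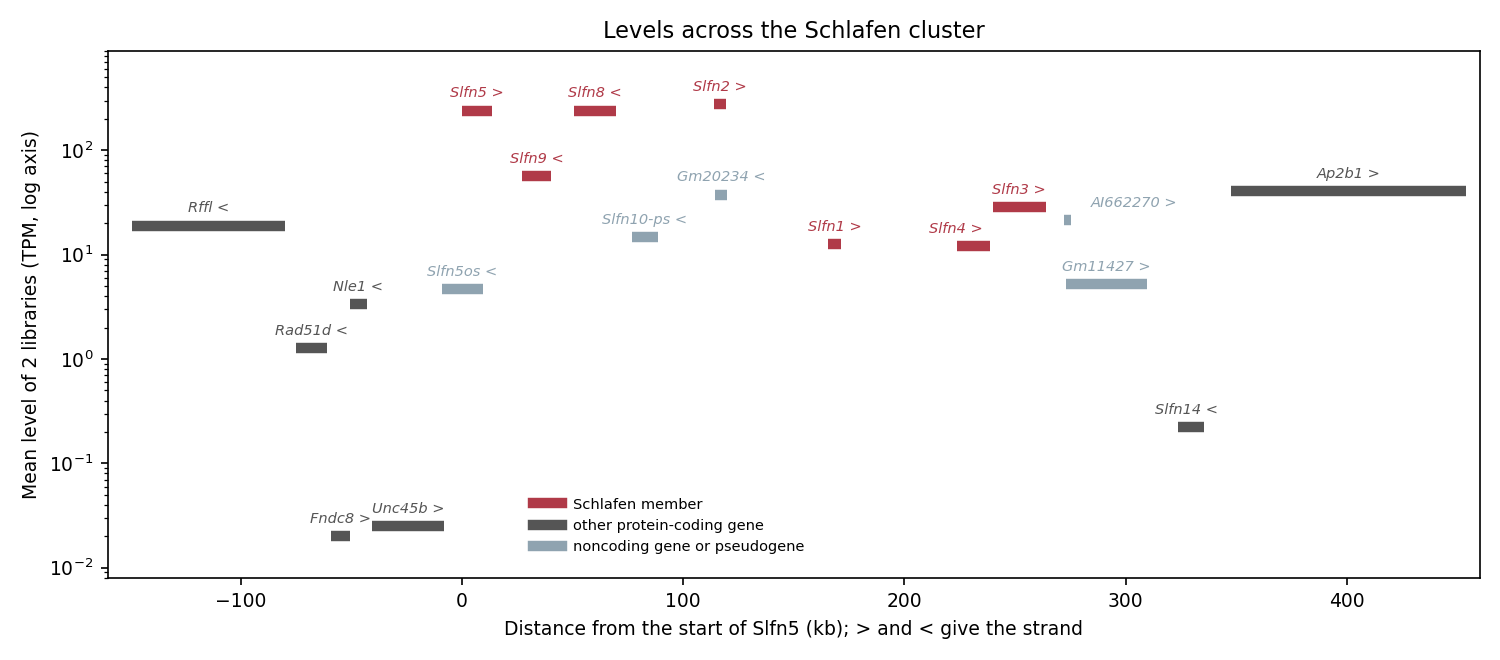
Mean TPM of the 2 libraries (log axis) against distance in kb from the start of Slfn5, with a bar over the span of each member (red), other protein-coding genes within 100 kb that the text names (dark grey) and selected noncoding genes and pseudogenes (light grey), Gm23444 not drawn; > and < give the strand. Slfn5, Slfn8, Slfn2 and Slfn9 stand above the other genes drawn, of which the highest, Ap2b1, has a mean of 41.0 TPM.

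Other protein-coding genes within 100 kb were much lower than the high set. Of these 8, 5 were detected, with mean levels from 0.02 to 41.0 TPM. Unc45b, a muscle myosin chaperone just before Slfn5, stood at 0.04 and 0.01 TPM, and Fndc8 at 0.04 and 0 TPM. Ap2b1, an endocytic adaptor subunit, was the highest at 55.4 and 26.6 TPM. Between these lay Rffl at 25.9 and 12.2 TPM, Nle1 at 4.63 and 2.16 TPM, Rad51d at 1.39 and 1.14 TPM and Slfn14 at 0.41 and 0.04 TPM. The 4 highest protein-coding genes of this stretch were thus Slfn2, Slfn8, Slfn5 and Slfn9, while Slfn3, Slfn1 and Slfn4 lay within the range of their neighbours.

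The remaining genes that carry a Slfn symbol were all lower than the high set. Slfn14, a long form known from platelets and red cell precursors, had 20 and 3 expected counts. Slfnl1, a Schlafen-like gene on chromosome 4, had 4 and 1 counts, or 0.18 and 0.03 TPM. Slfn10-ps, a pseudogene of the cluster, reached 18.5 and 11.2 TPM (mean 14.8 ± 5.11, SD, n = 2), above Slfn1 and Slfn4 in replicate 1 and below Slfn1 in replicate 2. Its relative log2 ratio was -0.09, below that of all 7 members.

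Transcripts on the opposite strand overlapped some members, and whether the counting used strand is not given in the sources used here. Where a gene and its antisense partner cover the same bases, their reads may therefore not be told apart. Slfn5os, antisense to Slfn5, stood at 5.17 and 4.25 TPM in the gene tables and 16.7 and 12.6 TPM in the read-based ones. Of its exon bases 559 (50.7%) lie in Slfn5 exons. Gm20234 stood at 51.4 and 23.99 TPM in the gene tables and 232 and 134 TPM in the read-based ones. It shares no exon base with Slfn2, but 76.7% of its exon bases lie within the span of that gene on the other strand. Its relative log2 ratio was -0.48, where that of Slfn2 was 0.51. The microRNA gene Mir7679 lies wholly within the span of Slfn9 outside its exons, and stood at 0 TPM in the gene tables but at 545 and 338 TPM in the read-based ones. Among the noncoding neighbours past Slfn3, the snRNA gene Gm23444 was listed at 17683.5 and 6692 TPM, a scale on which very short RNAs are divided by a very short length. In the same stretch AI662270 stood at 20.2 and 22.7 TPM and the pseudogene Gm11427 at 7.22 and 3.23 TPM.

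Expression of a multi-transcript gene was divided among isoforms, a division that rests on few reads where isoforms share sequence. Slfn5 was led by Slfn5-201, a transcript of 5979 bases, with 80.7% and 78.4% of the gene's TPM. In the read-based tables its mean share was 50.4% ± 2.18 (SD, n = 2) against 79.5% ± 1.63 in the gene tables. The difference went to Slfn5-202, with 5.24% and 4.16% in the gene tables but 24.6% and 22.5% in the read-based ones, and to Slfn5-203, with 14.1% and 17.3% against 25.4% and 24.7%. The same transcript led in both, by very different margins.

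In the gene tables the leading transcript of Slfn8 held the smallest share of any of these 5 genes, while in the read-based tables that of Slfn3 did. Slfn8-201 held 29.2% and 32.0% of the gene's TPM, a mean of 30.6% ± 1.96 (SD, n = 2), and 44.5% ± 2.60 in the read-based tables. Slfn8-206 was given 17.3% and 29.2%, from 1789 and 3539 expected counts, in the gene tables and 0 counts in both read-based libraries. Slfn8-204 held 24.2% and 13.0%, Slfn8-202 15.4% and 11.5%, and Slfn8-203 13.9% and 14.3%. So the 2 kinds of table disagreed on whether Slfn8-206 was present at all.

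The sequence of these transcripts showed how little there was to separate them. Words of 31 bases found in no other transcript of the same gene were counted as a transcript's own, whether or not other genes held them. Such words made up 0% of Slfn8-202, Slfn8-203 and Slfn8-206 and 0.703% of Slfn8-201. They made up 49.8% of Slfn5-201 but 1.85% of Slfn5-202 and 2.35% of Slfn5-203. Gene TPM also depends on this division where isoforms differ in length. Slfn5 gave 43.2% and 41.8% of the family's counts in the read-based tables, close to its 45.1% and 42% in the gene tables, yet its rank by TPM differed between them.

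Slfn9 was led by Slfn9-201 with 74.0% and 83.9% of the gene's TPM (mean 78.9% ± 7.01, SD, n = 2), close to the read-based 73.0% ± 6.63, and 35.8% of its words were its own. Slfn4 was led by Slfn4-201 with 67.9% and 65.1% (mean 66.5% ± 1.94) and 62.2% ± 6.30 in the read-based tables. Slfn4-202 held nearly all the rest, 32.1% and 34.9%. Slfn1 and Slfn2 each have 1 transcript. For Slfn9 the tables differed by less than the SD between libraries, and for Slfn4 by more than the SD of the gene tables.

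Slfn3 was the member whose isoforms differed most between libraries. The coding Slfn3-201 held 38.0% of the gene's TPM in replicate 1 and 59.9% in replicate 2. The noncoding Slfn3-203 held 37.2% and 24.5%, and the coding Slfn3-202 24.8% and 15.7%. The read-based tables moved the same way, with 28.5% and 45.6% for Slfn3-201 and 41.4% and 27.6% for Slfn3-203. In replicate 1 the leader by read-based share was thus the noncoding form and in replicate 2 the coding one. Of the words of Slfn3-203, 50.9% were its own, against 2.52% for Slfn3-201.

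**Figure D4:**
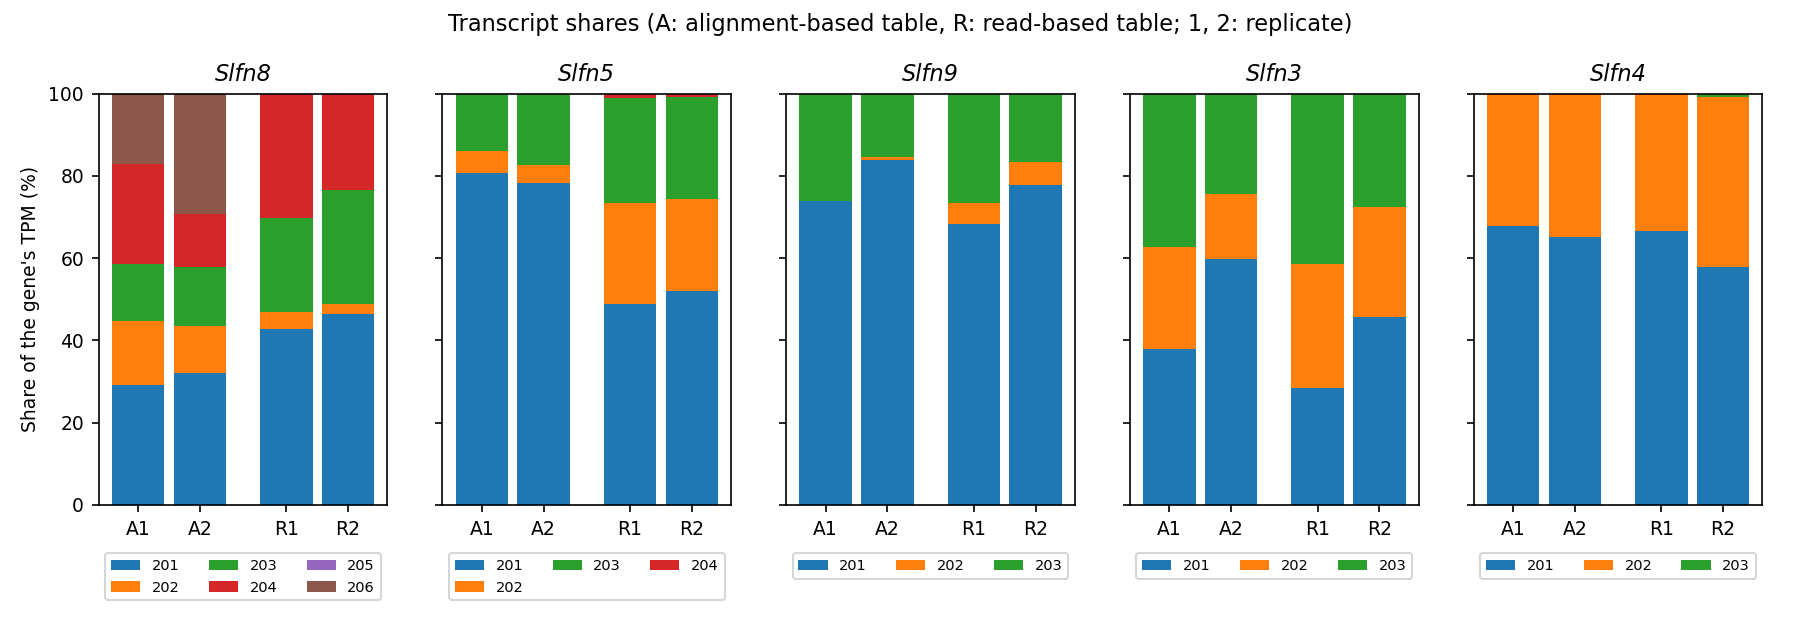
Share of each gene's TPM held by each annotated transcript, in percent, as stacked bars for the 5 members with several transcripts; A1 and A2 are replicates 1 and 2 in the tables made from alignments, and R1 and R2 the same libraries in the read-based tables. The share of Slfn5-201 is near 80% in the former and near 50% in the latter, and Slfn8-206 has a share in the former alone.

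Sequence shared between members limits how well reads can be assigned to one of them. Words were sought on both strands of the transcripts of every other gene. Of the distinct 31-base words in each gene's transcripts, the share found in any other gene was 30.9% for Slfn3, 27.3% for Slfn8, 24.6% for Slfn9, 20.9% for Slfn4, 13.4% for Slfn5, 10.8% for Slfn2 and 1.96% for Slfn1. With 100-base words it was 3.71% or less for all members but Slfn5, where it was 6.4% and came mostly from Slfn5os (6.16%). Slfn1 had no shared 100-base word. The order of the members by shared sequence thus depended on the word length.

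Sharing followed the arrangement of the cluster only in part. Slfn8 and Slfn9 had 792 words in common, 19.1% of those of Slfn8 and 13.3% of those of Slfn9, and Slfn10-ps shared 18.7% of the words of Slfn8 and 14.3% of those of Slfn9. Slfn3 and Slfn4 had 516 words in common, 15.1% and 12.9% of their words. Slfn2 shared 6.98% of its words with Slfn4 but only 0.0612% with Slfn1, the next member along. The pseudogene Gm11427 held 10.8% of the words of Slfn3 and 8.72% of those of Slfn4, and Slfn5os held 7.99% of those of Slfn5. In the same orientation, no word was shared between the block of Slfn1, Slfn2, Slfn3 and Slfn4 and the block of Slfn8, Slfn9 and Slfn10-ps. Slfn5 shared none with any member in that orientation.

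**Figure D5:**
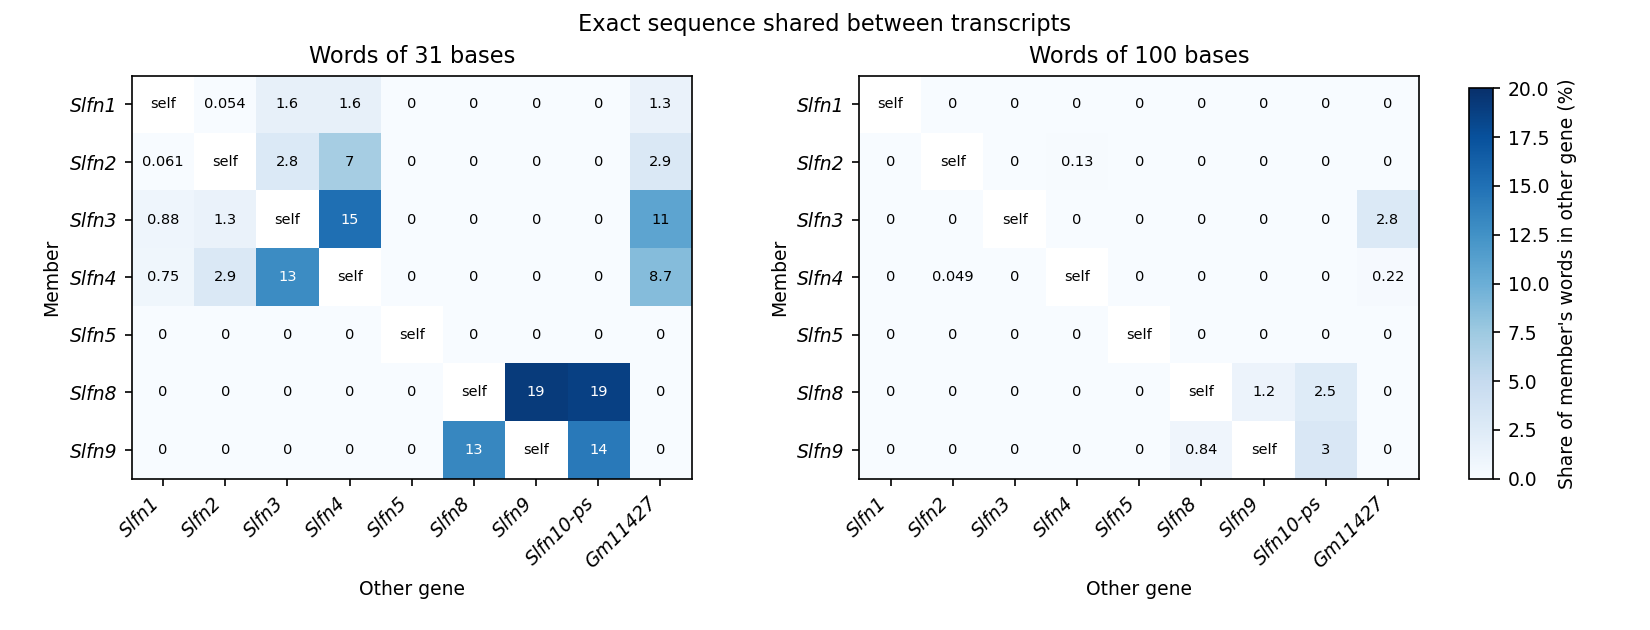
Percent of the distinct words of each member's transcripts (rows) that also occur in the same orientation in another gene (columns), for words of 31 bases (left) and 100 bases (right). The filled cells form a block of Slfn1, Slfn2, Slfn3, Slfn4 and the pseudogene Gm11427 and a block of Slfn8, Slfn9 and Slfn10-ps, with the highest member pair at 19.1% of the 31-base words of Slfn8.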

How the data were processed

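Total RNA-seq of 2 libraries in 1 group was analysed from tables the authors deposited. Per the accompanying notes, reads were matched to genome mm10 with annotation M21. The choice of aligner and counting tools is not given in the sources used here. Per the file headers, the gene and transcript tables hold expected counts, TPM, FPKM, a posterior mean TPM with credibility bounds and, for transcripts, the percent of the gene held by each isoform. A second deposited set, estimated from the read files, holds estimated counts and TPM per transcript, which were summed by gene. Libraries held 14374739 and 16372797 expected counts (21039284 and 27514005 in the read-based set), of which 1.413% and 0.2451% fell on entries outside annotated genes.

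Values were computed in Python 3.11.15 with pandas 2.3.3 and scipy 1.17.1. Ratios between libraries used log2(TPM + 1) over genes with a mean TPM of at least 1. As alternatives, TPM was rescaled so that nuclear-encoded protein-coding genes alone make up the fixed total, and posterior mean TPM, FPKM and the read-based tables replaced TPM. edgeR 4.0.16 and DESeq2 1.42.0 in R 4.3.3 gave alternative scaling factors on rounded counts; no differential test was run, since there is 1 group. The ratio step was tested on simulated data. Promoters came from RefSeq. Genes named are the members, other Slfn genes, neighbours within 100 kb, the highest and lowest of each list and the 3 genes nearest to Slfn2. The members and lists were chosen with earlier results of these data known. One neighbouring gene is not reported here by name.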

Additional observations from a re-analysis of the deposited data

How the results depend on the processing

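The 7 members were detected under all 5 alternatives tried. Their share of counts was 0.3013%, moved to 0.2606% in the read-based tables and to 0.4328% over protein-coding genes alone, and ranged from 0.2922% to 0.3104% when either library was left out. Scaling to protein-coding genes alone raised mean TPM from 279 to 1133 for Slfn2 and from 12.2 to 48.95 for Slfn4. By mean TPM, 4 of 7 members kept their rank in the read-based tables, 5 by posterior mean TPM and 7 by FPKM. The median relative log2 ratio of the members was 0.36, and ranged from 0.09 (no filter on low genes, where 4 of 7 members were above 0) to 0.52 (read-based tables, 7 of 7). With no filter the ratios of Slfn8, Slfn5 and Slfn9 were -0.06, -0.07 and -0.07. The subtracted median was then higher, so all relative ratios fell, and genes with a mean TPM of at least 1 had a median of -0.27. By expected counts in place of TPM, the leading transcript held 38.75% of Slfn8, 93.94% of Slfn5 and 91.38% of Slfn9. The ISRE count of 3 members was unchanged when only the 250 bases before the start were searched. No paired analysis was possible because there is 1 group. With 2 libraries an SD is itself imprecise. Counts were lowest for Slfn1, at 299 and 440.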
